A study of Mus musculus with 79 samples.

Results

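E0771 and metM-Wnt-liver mammary tumors were compared in lean mice that received no drug. The comparison takes every tumor that the sample titles place in the control diet group of either line, which gives 6 E0771 and 7 metM-Wnt-liver tumors, 13 of the 79 tumors on arrays. E0771 is a C57BL/6 mammary carcinoma line that was bought and carries a GFP and luciferase reporter, and metM-Wnt-liver is a line established from a liver metastasis of M-Wnt cells, which came from mammary tumors of MMTV-Wnt1 transgenic mice, where a mammary virus promoter drives Wnt1. The mice were female C57BL/6J, placed as young adults on a low-fat control diet (Con), and each carried 1 tumor grown from cells injected into mammary fat pad 4. The same lines were also measured in lean mice fed 140 ppm sulindac, an inhibitor of both cyclooxygenases (ConSul, 6 E0771 and 4 metM-Wnt-liver tumors), in mice made obese by a high-fat diet (DIO, 8 and 7) and in obese mice fed sulindac (DIOSul, 8 and 7), and these tumors served to repeat the comparison in other animals. Each line is a single line, and all tumors of a line were taken once any of them reached a size limit, so that line, tumor age and day of collection cannot be told apart.

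A tumor line keeps the gene program of the cell it started from, with the changes in chromosomes and DNA methylation gathered since, and it also sets which host cells enter the tumor. Mammary cancer cells lie on a range between epithelial cells, held together by cadherin and tight junctions, and mesenchymal cells, which switch on factors such as Snai2, Twist and Prrx1. Wnt, TGF-beta and BMP ligands, prostaglandins and cytokines are made by cancer and host cells alike. RNA came from whole tumors, mixtures of cancer cells, host immune cells and stroma with any fat or muscle cut out beside them, so fewer cells of a type and less RNA per cell cannot be told apart in any value below.

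The arrays measured 19505 named genes on a log2 scale, and a gene was called where limma's adjusted p, over all genes, was under 0.05. Of these genes 8808 were called (45.2%), 4750 higher in E0771 (24.4%) and 4058 lower (20.8%), with a median absolute difference of 0.91 among the called genes. A difference of at least 1, a doubling of signal, was reached by 1963 genes upward (10.1%) and 1894 downward (9.71%), and one of at least 3 by 195 (1%) and 256 (1.31%). In 3624 genes (18.6%) the groups did not overlap, 1925 with E0771 above (9.87%) and 1699 with E0771 below (8.71%). The first principal component held 57.3% of the variance and separated the lines. Arrays of E0771 correlated at 0.9695 to 0.9892 with each other, those of metM-Wnt-liver at 0.9712 to 0.9904, and arrays of different lines at 0.9311 to 0.953. The median difference over all genes was 0.02. Centring each array on its median moved it to 0.16 and the share of calls that were higher in E0771 to 65.6%, against 53.9% as deposited, so small differences have no settled direction, and 10 of 44 gene lists, with medians of at most 0.09 in size, changed sign with the scaling. Genes near the limit were Nwd1 (adjusted p = 0.049977) inside it and Krt76 (0.050004) outside.

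Certain arrays stand apart and bear on what follows. The lowest values of the metM-Wnt-liver Con arrays were 0.07 to 2.17, while no E0771 array went below 2.36. In 23 genes a metM-Wnt-liver Con array fell below that level, among them 7 of the adipocyte list and Timp4. The 4 metM-Wnt-liver ConSul arrays had lowest values of 2.44 to 2.57 like E0771, and their mean profile correlated at 0.992 with the metM-Wnt-lung Con arrays but at 0.985 to 0.988 with the other groups of their own line. The metM-Wnt-lung Con arrays had lowest values of 2.48 to 2.64, and the metM-Wnt-liver DIO and DIOSul arrays 0.37 to 2.48 and 0.73 to 1.91. No batch was given in the sources used here. Weak signals repeated least in ConSul mice: of the called genes whose higher group mean was over 7, 74.8% were called in the same direction there, against 33.4% at 5 to 7 and 5.51% under 5. Of those under 5, 35.7% were called again in DIO and 55% in DIOSul mice. Without the 4 metM-Wnt-liver ConSul arrays in the fit 8822 genes were called in Con mice. Each gene given below with its own difference that was called in Con but not in ConSul mice is marked as such. The ConSul comparison rests in part on the 4 metM-Wnt-liver arrays described above. Such a mark therefore cannot tell an effect of sulindac from a difference of those arrays. HOX genes named without a value are covered by a count only.

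The largest difference of all was Gm364, a predicted X-linked gene. Its lowest, median and highest values, the order used for every gene given by 3 values, were 14.48, 14.80 and 15.02 in E0771 and 3.58, 4.03 and 4.35 in metM-Wnt-liver tumors, 10.73 higher on the log2 scale (SE 0.15, adjusted p = 1.15e-47). Rhox5, an X-linked homeobox gene of the reproductive tract, had 13.19, 13.42 and 13.72 in E0771 against 5.47, 5.77 and 6.56 in metM-Wnt-liver tumors, a difference of 7.54 (SE 0.39, adjusted p = 1.97e-22). Both genes were bright in every E0771 tumor and dim in every metM-Wnt-liver tumor. For the genes given by 3 values here and below, no tumor of one line lay within the range of the other unless an overlap is named.

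Further X-linked genes were among those chosen. Tex11, needed for meiosis in male germ cells, had 10.02, 10.86 and 11.27 in E0771 against 3.46, 3.66 and 4.22 in metM-Wnt-liver tumors (7.09 higher, SE 0.19). Xlr3b, of the X-linked lymphocyte-regulated family, had 10.58, 10.95 and 11.19 in E0771 against 4.04, 4.45 and 5.23 in metM-Wnt-liver tumors (6.40 higher, SE 0.23), and its relatives Xlr3a and Xlr3c were 5.77 and 6.08 higher, although near-identical copies may share probes. Of the 12 genes with the largest upward differences among those without overlap 7 were on the X (Gm364, Rhox5, 4930550L24Rik, Gm773, Tex11, Pnma5 and Xlr3b), and none of the 12 largest downward. Car3, whose groups overlapped, was 7.10 higher and so lay outside this set. Over the whole array 798 genes were X-linked. They gave 16 of the 53 genes that were at least 5 higher in E0771 and 1 of the 58 that were at least 5 lower. The 16 included Xlr3a, Xlr3b and Xlr3c, which may share probes, so they may not be 16 separate signals. Nxf3, an RNA export factor relative, Esx1, a homeobox gene of placenta and testis, Luzp4 and the adhesion gene L1cam were among the 16, at 6.0, 5.07, 5.19 and 5.27 higher. All the X-linked genes named here repeated in ConSul mice, where Gm364 was 9.93 and Xlr3b 4.70 higher.

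Upstream windows of genes picked from both ends are shown because CG pairs are where promoter methylation acts, which these arrays do not measure. The windows run from 250 bases before to 50 after the RefSeq start on build GRCm38.p6, printed 5′ to 3′ with each CG (the motif searched, its own reverse complement) in capitals. The Gm364 window, chrX:57408899-57409198 on the plus strand, holds 10, that of Rhox5, chrX:37754358-37754657 on the plus strand, holds 5, and that of Grem1, chr2:113758599-113758898 on the minus strand, holds 28.
Gm364: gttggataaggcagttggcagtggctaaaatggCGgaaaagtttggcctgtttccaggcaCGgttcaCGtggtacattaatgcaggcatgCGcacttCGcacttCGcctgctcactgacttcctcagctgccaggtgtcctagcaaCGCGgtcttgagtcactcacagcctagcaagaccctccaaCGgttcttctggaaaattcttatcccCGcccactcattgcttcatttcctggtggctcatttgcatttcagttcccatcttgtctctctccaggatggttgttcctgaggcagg
Rhox5: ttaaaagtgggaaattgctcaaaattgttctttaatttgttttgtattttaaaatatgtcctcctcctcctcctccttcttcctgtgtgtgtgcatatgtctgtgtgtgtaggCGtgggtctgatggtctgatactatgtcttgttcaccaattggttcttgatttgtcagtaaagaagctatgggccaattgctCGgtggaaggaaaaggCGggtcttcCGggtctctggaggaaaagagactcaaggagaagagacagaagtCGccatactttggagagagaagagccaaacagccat
Grem1: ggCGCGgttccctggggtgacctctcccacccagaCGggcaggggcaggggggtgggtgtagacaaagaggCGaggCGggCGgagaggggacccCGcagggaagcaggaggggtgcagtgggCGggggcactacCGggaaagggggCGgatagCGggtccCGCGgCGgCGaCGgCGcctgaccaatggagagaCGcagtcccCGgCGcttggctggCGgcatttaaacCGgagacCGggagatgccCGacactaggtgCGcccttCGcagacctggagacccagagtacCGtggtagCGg
Windows were found for 14 of the 16 X-linked genes, whose 15 windows held 1 to 25 CG, with a median of 7, and 4 of them (26.7%) held 10 or more. Among all 32851 windows the median was 7 and 43.5% held 10 or more. On the X 38.6% of windows held 10 or more. The 12 leading higher genes, of which 9 had a window, had 12 windows with 1 to 41 CG and a median of 8.5, and 5 of them (41.7%) held 10 or more. The leading lower genes with a window (7 of 12) had 9 windows with 3 to 32 CG and a median of 26, of which 6 (66.7%) held 10 or more. The printed windows do not stand for their sets. Esm1 and Apol7e, both lower, had 5 and 3 CG, and windows of Acsl6 and Crmp1, both higher, reached 36 and 41.

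Of the others in the upward set, Ereg, epiregulin, a ligand of the EGF receptor, had 11.14, 11.67 and 12.70 in E0771 against 4.26, 4.47 and 4.72 in metM-Wnt-liver tumors, 7.24 higher (SE 0.28, adjusted p = 1.53e-27). Acsl6, which activates long-chain fatty acids, had 10.30, 11.15 and 11.91 in E0771 against 3.12, 3.48 and 3.97 in metM-Wnt-liver tumors, 7.67 higher (SE 0.19, adjusted p = 6.68e-36). Dkk2, a secreted modulator of Wnt signaling, ranged more widely in E0771, with 9.05, 10.81 and 13.08 in E0771 against 3.03, 4.36 and 5.05 in metM-Wnt-liver tumors (6.70 higher, SE 0.48). The neuronal genes Crmp1 and Nptx1 were 6.42 and 6.36 higher, and the X-linked Pnma5 6.79 higher.

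At the other end, Crabp2, which carries retinoic acid to its nuclear receptor, had 5.48, 5.98 and 6.26 in E0771 against 14.41, 14.89 and 15.64 in metM-Wnt-liver tumors, a difference of -9.05 (SE 0.28, adjusted p = 9.46e-32). Dynap, a dynactin-associated membrane protein, had 3.91, 4.15 and 5.82 in E0771 against 12.94, 13.87 and 14.31 in metM-Wnt-liver tumors (-9.30, SE 0.38). Both were dim in E0771 and bright in every metM-Wnt-liver tumor, with 1 E0771 tumor above the others for Dynap. Esm1, endocan, a proteoglycan of activated endothelium and of some tumors, had 4.32, 4.76 and 5.50 in E0771 against 12.16, 13.03 and 13.53 in metM-Wnt-liver tumors (-8.09, SE 0.43). Of 13 endothelial markers 5 were lower and 3 higher (61.5% called, against 45.2% of all genes, median -0.46), and Pecam1 was not called. Ncam1, the neural cell adhesion molecule, had 5.22, 5.71 and 6.86 in E0771 against 13, 13.72 and 14.24 in metM-Wnt-liver tumors (-7.80, SE 0.32). Mme, neprilysin or CD10, a surface peptidase of basal mammary and stromal cells, had 6.01, 6.72 and 10.02 in E0771, with 1 tumor well above the other E0771 tumors, against 14.18, 15.06 and 15.57 in metM-Wnt-liver tumors (-7.71, SE 0.46). The RNA-binding gene Khdrbs3, the cGMP-dependent kinase Prkg2, Trp53i11, Apol7e, the protocadherin Pcdh18 and the incretin receptor gene Glp1r had differences of -8.12, -7.09, -7.01, -7.01, -6.90 and -6.88. All were chosen for groups that did not overlap, and the plot of the leading genes shows their values by tumor.

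**Figure D1:**
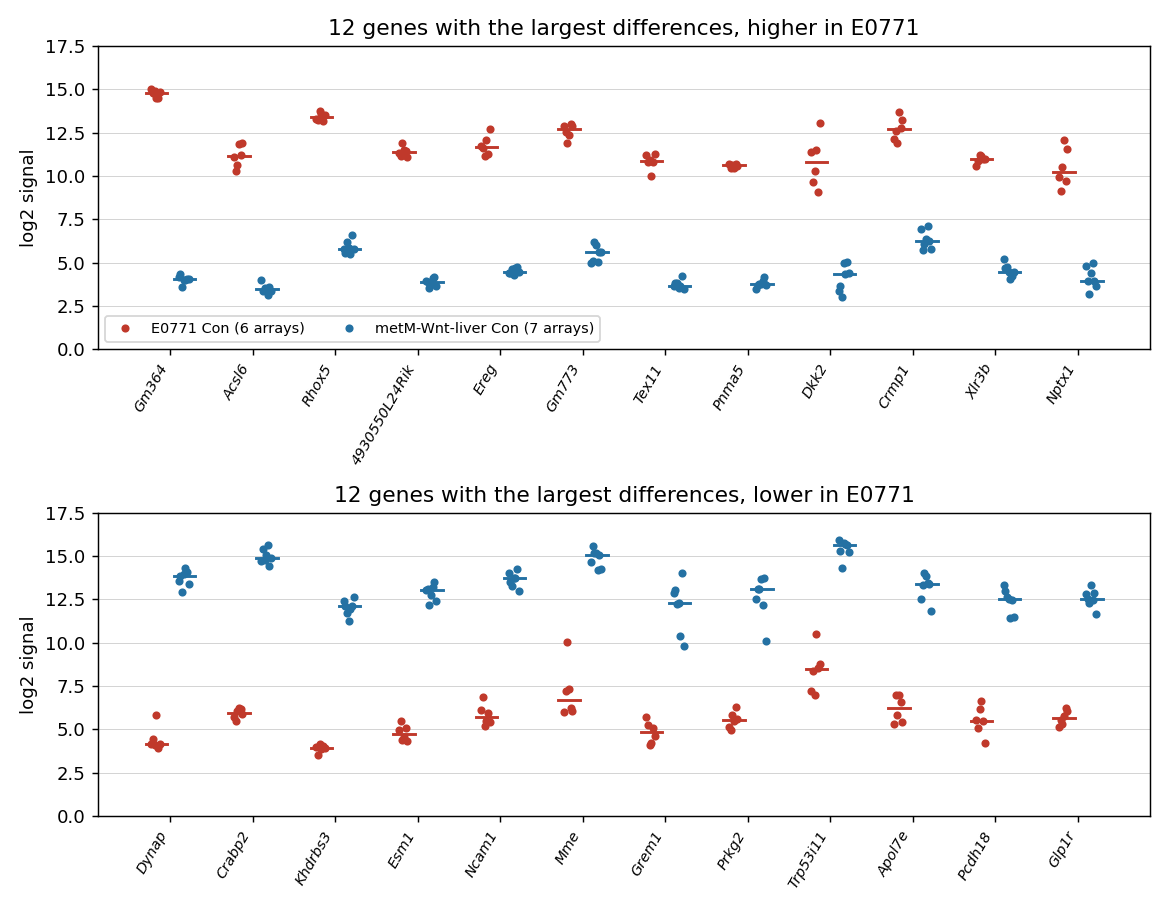
Log2 signal of the 12 genes with the largest differences in each direction among those whose groups did not overlap, upper panel higher in E0771 and lower panel lower in E0771. Each point is 1 tumor, red for the 6 E0771 Con and blue for the 7 metM-Wnt-liver Con tumors, and each line a median; Gm364 lies at 14.48 to 15.02 in E0771 and 3.58 to 4.35 in metM-Wnt-liver tumors.

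HOX genes, which record position along the body axis, differed by cluster. Of 33 measured, 12 were higher and 7 lower in E0771 (57.6% called, against 45.2% of all genes). Their median difference was 0.09, against 0.02 over all genes. The HOXD cluster had 3 of 7 higher and none lower, all 3 adjacent: Hoxd10 had 9.53, 9.98 and 11 in E0771 against 3.23, 3.74 and 4.30 in metM-Wnt-liver tumors (6.34 higher, SE 0.25, adjusted p = 5.55e-27), and Hoxd9 and Hoxd8 were 4.80 and 4.66 higher. In the HOXC cluster 6 of 9 were higher, led by Hoxc10 at 8.32, 8.70 and 9.41 in E0771 against 3.89, 4.75 and 5.27 in metM-Wnt-liver tumors (4.21 higher, SE 0.24), and Hoxc13 was lower at weak signal. The HOXA cluster split: Hoxa10 was 3.66 higher and 4 of 8, Hoxa2, Hoxa3, Hoxa5 and Hoxa6, were lower, with Hoxa5 at -1.92. Hoxb2 was the most reduced, with 4.81, 5.92 and 6.57 in E0771 against 8.37, 8.47 and 9.64 in metM-Wnt-liver tumors (-2.89, SE 0.29). Of the 19 called HOX genes, 16 were called in the same direction in ConSul mice, 18 in DIO and 18 in DIOSul mice.

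**Figure D2:**
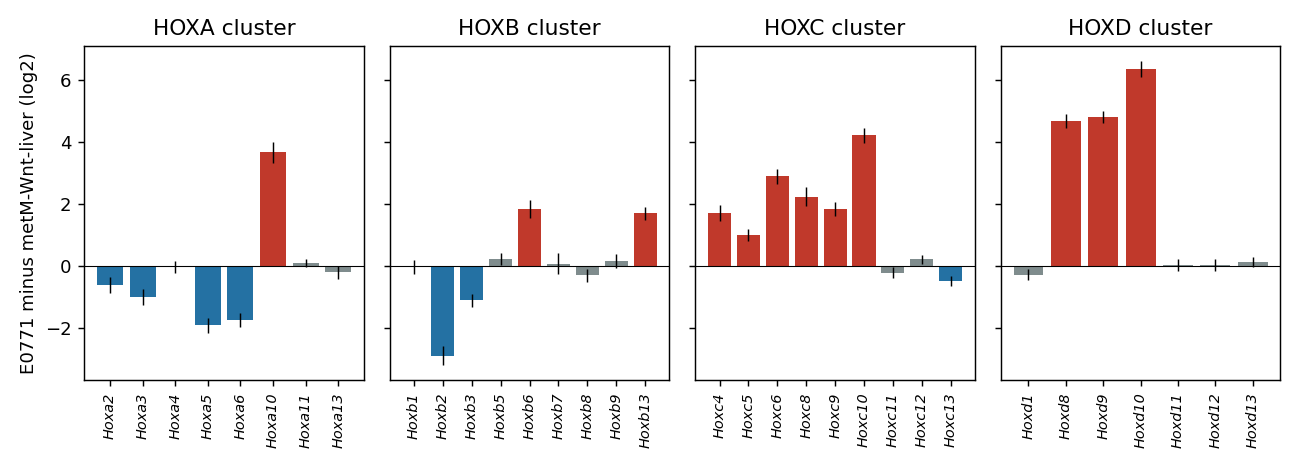
Difference in log2 signal, E0771 minus metM-Wnt-liver tumors of Con mice, for the HOX genes measured in each cluster in order of their number. Bars are fitted differences with their SE, red or blue where the adjusted p was under 0.05 and grey otherwise; Hoxd8, Hoxd9 and Hoxd10 reach 4.66, 4.80 and 6.34.

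Mesenchymal factors moved in opposite directions. Of 19 EMT transcription factors and mesenchymal markers, 4 were higher and 10 lower in E0771 (73.7% called, against 45.2% of all genes, median -0.54). Prrx1, a homeobox factor of mesenchyme, had 13.61, 14.51 and 15.26 in E0771 against 6.30, 8.29 and 9.31 in metM-Wnt-liver tumors (6.31 higher, SE 0.44, adjusted p = 3.05e-17), and Twist2 was 2.18 higher. Snai2, which represses epithelial cadherin, ran the other way at 6.11, 7.54 and 8.66 in E0771 against 8.99, 12.65 and 13.34 in metM-Wnt-liver tumors (-4.54, SE 0.52), with metM-Wnt-liver Con 5 closest to the E0771 range. Neural cadherin, Cdh2, had 5.21, 5.76 and 7.43 in E0771 against 9.70, 11.11 and 11.80 in metM-Wnt-liver tumors (-4.93, SE 0.27), and fibronectin, Fn1, had 10.97, 12.10 and 13.92 in E0771 against 13.94, 14.86 and 16.50 in metM-Wnt-liver tumors (-2.58, SE 0.53). In these arrays 1 line thus carried the higher Prrx1 and Twist2 signal and the other the higher Snai2 and Cdh2 signal.

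Epithelial genes were mixed, with 9 of 29 higher and 4 lower (44.8% called, against 45.2% of all genes, median 0.24). Once scores for fat and muscle entered the fit, 4 were higher and 3 lower. Ocln, occludin of tight junctions, had 8.91, 9.32 and 10 in E0771 against 4.48, 5.12 and 5.41 in metM-Wnt-liver tumors (4.26 higher, SE 0.22, adjusted p = 4.83e-22). Spint2, a protease inhibitor of epithelia, had 7.51, 8.84 and 9.58 in E0771 against 5.39, 6.71 and 7.37 in metM-Wnt-liver tumors (2.25 higher), while plakoglobin, Jup, had 6.0, 7.56 and 8.48 in E0771 against 8.20, 10.03 and 12.25 in metM-Wnt-liver tumors with overlap (-2.50, SE 0.47). Epithelial cadherin, Cdh1, was not called. The splicing factor Esrp2 (2.53) and the keratin Krt19 (2.73) were called higher in Con but not in ConSul mice (0.50 and -0.98), and so was the luminal factor Foxa1 (1.91, against 0.30 in ConSul). Erbb2, the growth factor receptor, was 1.57 higher (SE 0.23) at 9.09, 9.35 and 10.08 in E0771 against 7.36, 7.94 and 8.39 in metM-Wnt-liver tumors.

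Among cancer genes, Myc had 15.04, 16.09 and 17.03 in E0771 against 12.49, 13.20 and 13.73 in metM-Wnt-liver tumors, 2.92 higher (SE 0.26, adjusted p = 2.28e-13), and Met, the receptor of hepatocyte growth factor, had 14.35, 14.62 and 15.09 in E0771 against 10.71, 12 and 12.24 in metM-Wnt-liver tumors, 3.0 higher (SE 0.18). Fgfr1, a fibroblast growth factor receptor, was lower at 12.35, 12.96 and 13.14 in E0771 against 14.01, 14.44 and 15.26 in metM-Wnt-liver tumors (-1.73, SE 0.21), and Mycn, a relative of Myc, differed by -1.51 at weak signal. Of 20 oncogenes and tumor suppressors 6 were higher and 4 lower (50% called, against 45.2% of all genes). All 10 called genes were called in the same direction in the other host groups. Of 25 genes that p53 switches on, 4 were higher and 9 lower (52% called, against 45.2% of all genes, median -0.31). Trp53inp1 had 5.38, 6.92 and 8.57 in E0771 against 10.50, 10.99 and 11.93 in metM-Wnt-liver tumors (-4.33, SE 0.39, adjusted p = 1.66e-13), and Eda2r, a death receptor relative, had 5.04, 5.71 and 8.01 in E0771 against 8.70, 9.64 and 10.57 in metM-Wnt-liver tumors (-3.55, SE 0.38). Sesn1 was lower by 1.95 and Cdkn1a, the p21 cell cycle inhibitor, was lower by 1.06 with overlapping ranges, while Tigar, a regulator of glycolysis, was 1.41 higher and Mdm2, which degrades p53, 0.66 higher with overlap and not called in ConSul mice. Limma did not call Mdm2 with only the 13 Con arrays in the fit (adjusted p = 0.0699), with a replicate block (0.148) or without E0771 Con 6 (0.0525), nor Cdkn1a with fat and muscle scores as covariates (0.0585). Trp53 itself was not analysed here.

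Wnt1, the transgene behind the M-Wnt lines, was close to the bottom of the scale in both, at 3.18, 3.65 and 4.06 in E0771 against 2.93, 3.29 and 3.48 in metM-Wnt-liver tumors (0.37, SE 0.13, adjusted p = 0.0189), with overlap, and limma no longer called it with only the 13 Con arrays in the fit (adjusted p = 0.0838), without E0771 Con 5 (0.0849), without metM-Wnt-liver Con 5 (0.0546) or in ConSul mice. Other ligands moved more. Of 19 ligands 5 were higher and 5 lower (52.6% called, against 45.2% of all genes). Wnt5a, which acts mainly outside beta-catenin, had 4.97, 5.65 and 6.72 in E0771 against 6.95, 8.22 and 8.76 in metM-Wnt-liver tumors (-2.38, SE 0.34), and Wnt10a had 5.29, 5.78 and 6.36 in E0771 against 6.96, 7.97 and 9.35 in metM-Wnt-liver tumors (-2.28, SE 0.28). Of 21 receptors and coreceptors, 3 were higher and 8 lower (52.4% called, median -0.39). Fzd7 had 4.97, 6.57 and 7.13 in E0771 against 9.20, 9.80 and 10.77 in metM-Wnt-liver tumors (-3.43, SE 0.33, adjusted p = 1.76e-12) and Fzd2 had 6.47, 7.01 and 7.63 in E0771 against 8.87, 9.86 and 10.77 in metM-Wnt-liver tumors (-2.79, SE 0.31). Fzd6 was lower by 2.21 in Con but not called in ConSul mice (-0.63). Target genes split, 4 higher and 3 lower of 13 (53.8% called): the inhibitor Apcdd1 had 11.11, 11.95 and 13.18 in E0771 against 6.40, 6.92 and 8.98 in metM-Wnt-liver tumors (4.74 higher, SE 0.48) and the ligase Znrf3 was 1.87 higher, while Ccn4 had 5.21, 6.90 and 7.94 in E0771 against 9.38, 10.29 and 11.25 in metM-Wnt-liver tumors (-3.43, SE 0.42), the transcription factor Lef1 was lower by 2.11, and Axin2 was not called.

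Of 23 TGF-beta and BMP genes, 10 were lower in E0771 (20.8% over all genes), 4 were higher and 9 were not called (median -0.24). Grem1, gremlin, which binds BMPs outside the cell, had 4.08, 4.86 and 5.74 in E0771 against 9.79, 12.30 and 14.02 in metM-Wnt-liver tumors (-7.26, SE 0.53, adjusted p = 1.3e-16), and its CG-rich window is printed above. Of the ligands, Inhba, the activin subunit, had 5.87, 6.57 and 7.90 in E0771 against 9.91, 12.36 and 13.73 in metM-Wnt-liver tumors (-5.66, SE 0.42), Bmp4 had 3.79, 5.20 and 6.10 in E0771 against 7.94, 10.28 and 11.72 in metM-Wnt-liver tumors (-5.03, SE 0.52), and Tgfb3 had 8.62, 9.19 and 9.48 in E0771 against 11.86, 12.30 and 13.11 in metM-Wnt-liver tumors (-3.33, SE 0.27). The receptors Tgfbr1 and Tgfbr2 were lower, at -3.14 and -2.36. Of the inhibitors of differentiation that BMPs switch on, Id3 was lower by 3.17 and Id1 higher by 1.75. In 10 of the 14 called genes the direction was called in ConSul mice too.

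Prostaglandin genes were called in 17 of 20 cases, 7 higher and 10 lower in E0771 (85%, against 45.2% of all genes; median -0.41). The 2 steps to prostaglandin E2 ran in opposite directions. Ptgs2, the inducible cyclooxygenase, had 6.54, 7.53 and 9.81 in E0771 against 11.75, 12.87 and 14.83 in metM-Wnt-liver tumors (-5.19, SE 0.58, adjusted p = 1.12e-10), 36.4-fold lower. Ptges, the synthase that follows it, had 14.02, 14.42 and 14.93 in E0771 against 7.33, 8.30 and 12.26 in metM-Wnt-liver tumors (5.46 higher, SE 0.64, adjusted p = 4.94e-10), with metM-Wnt-liver Con 4 and Con 5 at 10.98 and 12.26, above the others of their line. Pla2g4a, which frees the arachidonic acid substrate, was lower by 2.37, thromboxane synthase, Tbxas1, had 8.43, 9.71 and 10.62 in E0771 against 11.26, 12.23 and 12.68 in metM-Wnt-liver tumors (-2.48, SE 0.31), and the prostaglandin E2 receptor gene Ptger2 was lower by 2.30 at weak signal. Hpgd, which degrades prostaglandins, was 2.98 higher in Con but not in ConSul mice (-0.09). Ptgs1 was not analysed here. Ptgs2 was lower by 4.48 and Ptges was higher by 4.36 in ConSul mice.

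Of 21 collagens 5 were higher and 5 lower (47.6% called, against 45.2% of all genes). The collagen VI chain Col6a3 had 12.91, 13.38 and 13.76 in E0771 against 9.31, 10.32 and 11.95 in metM-Wnt-liver tumors (2.94, SE 0.36) and Col6a2 had 12.32, 12.68 and 13.97 in E0771 against 9.64, 10.84 and 11.10 in metM-Wnt-liver tumors (2.26, SE 0.30), while Col1a1 and Col1a2 were not called and Col8a1 was lower by 2.84. Of 18 matricellular proteins and crosslinkers 9 were lower and 2 higher (61.1% called, median -0.47). Loxl3, a lysyl oxidase that crosslinks collagen, had 9.40, 9.82 and 10.35 in E0771 against 14.94, 15.31 and 15.65 in metM-Wnt-liver tumors (-5.49, SE 0.28, adjusted p = 1.31e-22), whereas its relative Loxl4 was 2.77 higher. Ccn2, connective tissue growth factor, had 8.53, 9.19 and 9.76 in E0771 against 10.78, 11.74 and 13.96 in metM-Wnt-liver tumors (-2.73, SE 0.47), and the protease inhibitor Timp1 had 11.52, 11.78 and 11.94 in E0771 against 13.87, 14.44 and 15.29 in metM-Wnt-liver tumors (-2.66, SE 0.27).

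The MHC class II list had 9 of 10 genes lower and none higher (90%, against 20.8% of all genes; median -2.02), and all 9 were called in the same direction in each other host group. The antigen chain H2-Eb1 had 10.65, 12.52 and 13.54 in E0771 against 13.87, 14.93 and 16.01 in metM-Wnt-liver tumors (-2.51, SE 0.51, adjusted p = 4.68e-05), H2-Aa had 12.16, 14.14 and 15.22 in E0771 against 15.32, 15.78 and 17.14 in metM-Wnt-liver tumors (-2.08, SE 0.51), and the peptide loading chain H2-DMa had 7.97, 8.71 and 10.01 in E0771 against 11.14, 11.71 and 13.06 in metM-Wnt-liver tumors (-3.16, SE 0.39). H2-DMb1 was lower by 2.24, and Ciita, their activator, was lower by 1.52 with overlapping ranges. Of 14 MHC class I and loading genes 8 were lower and none higher (57.1%, against 20.8% of all genes, median -0.61), led by H2-Q4 at 10.38, 10.86 and 11.61 in E0771 against 13.35, 13.53 and 14.07 in metM-Wnt-liver tumors (-2.68, SE 0.21). H2-M3, which presents formylated peptides, was lower by 1.03, and of the 8 genes all were called in ConSul and DIO mice and 7 in DIOSul mice. With arrays centred on their medians 1 class II gene was called higher.

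T cell markers were lower in 7 of 10 cases (70%, median -1.37) and NK and cytotoxic markers in 10 of 11 (90.9%, median -1.82), against 20.8% of all genes, with none of either higher. Cd8a, the coreceptor of cytotoxic T cells, had 5.08, 7.04 and 8.64 in E0771 against 9.07, 11.65 and 12.63 in metM-Wnt-liver tumors (-4.11, SE 0.63, adjusted p = 2.71e-07). Cd3e, part of the T cell receptor complex, had 7.02, 8.20 and 9.20 in E0771 against 9.24, 10.59 and 11.50 in metM-Wnt-liver tumors (-2.21, SE 0.52), and Cd3g was lower by 3.02 with overlap. All 7 called T cell genes were called in ConSul and DIO mice and 6 in DIOSul mice, where Cd3e was not. Cytotoxic granule genes gave the same order: Nkg7 had 7.44, 8.96 and 9.84 in E0771 against 10.97, 12.30 and 13.39 in metM-Wnt-liver tumors (-3.42, SE 0.45) and perforin, Prf1, had 4.91, 5.79 and 6.71 in E0771 against 7.35, 8.77 and 9.72 in metM-Wnt-liver tumors (-3.11, SE 0.46). The NK receptors Klrd1 and Klrb1c were lower, at -3.14 and -2.98. The inhibitory receptors Havcr2, Lag3 and Pdcd1 were lower, at -2.69, -2.57 and -2.02, Lag3 with overlapping ranges. Ptprc, carried by all leukocytes, had 12.39, 13.98 and 14.57 in E0771 against 13.37, 14.40 and 15.10 in metM-Wnt-liver tumors and was not called (-0.66, SE 0.32, adjusted p = 0.0837), with overlap, although limma called it with quantile normalization (adjusted p = 0.0441), without E0771 Con 2 (0.0401) and without metM-Wnt-liver Con 7 (0.0267). Of 10 B and plasma cell markers 2 were lower (20%, against 20.8% of all genes), among them Cd79b at -3.08. Cd4 was not called.

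Interferon gamma, Ifng, had 4.43, 5.68 and 6.90 in E0771 against 7.03, 8.37 and 10.18 in metM-Wnt-liver tumors (-2.83, SE 0.55). Of 18 genes of its response and of T cell attraction 12 were lower and 1 higher (72.2% called, against 45.2% of all genes, median -0.90). The interferon-induced GTPase Iigp1 was lower by 2.10 with overlap. Ido1, which degrades tryptophan, was the 1 higher, by 2.29, but not with fat and muscle scores as covariates (0.58, adjusted p = 0.369) nor in ConSul mice (-1.38). Type I interferon genes did not follow in Con mice: of 28, 6 were higher and 2 lower (28.6% called, against 45.2% of all genes, median 0.28). The antiviral gene Rsad2 had 12.86, 13.34 and 13.89 in E0771 against 10.81, 12.10 and 12.50 in metM-Wnt-liver tumors (1.52 higher, SE 0.26). When fat and muscle scores were covariates 3 were higher. The list median was -0.50 in ConSul, -0.27 in DIO and 0.15 in DIOSul mice. Of the 8 calls 4, 4 and 7 repeated there.

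Of 15 macrophage and monocyte markers 8 were lower and 1 higher (60% called, against 45.2% of all genes, median -1.10). Cx3cr1, the fractalkine receptor of macrophages and monocytes, showed the widest gap, with 4.71, 5.21 and 5.65 in E0771 against 9.78, 9.94 and 11.05 in metM-Wnt-liver tumors (-5.16, SE 0.29, adjusted p = 4.53e-21). Trem2, a lipid receptor of tumor macrophages, had 7.26, 8.24 and 8.79 in E0771 against 10.54, 11.13 and 12.30 in metM-Wnt-liver tumors (-3.18, SE 0.31), and Csf1r, the growth factor receptor of the lineage, had 11.18, 11.78 and 12.42 in E0771 against 13.47, 13.90 and 14.51 in metM-Wnt-liver tumors (-2.22, SE 0.26). Cd163, a scavenger receptor of resident macrophages, was the exception, at 6.67, 9.48 and 11.04 in E0771 against 2.90, 5.76 and 7.56 in metM-Wnt-liver tumors (3.78 higher, SE 0.78, with overlap), and its call was lost in ConSul mice and when fat and muscle scores were covariates (1.10, adjusted p = 0.267). Of 10 neutrophil markers 2 were higher (20%, against 24.4% of all genes), or 4 with fat and muscle scores as covariates. Hdc, histidine decarboxylase, had 9.02, 9.95 and 12.26 in E0771 against 7.31, 7.51 and 7.79 in metM-Wnt-liver tumors (2.62 higher, SE 0.42). The mean score of the neutrophil list, in log2 units around the mean of the 13 arrays, was -0.25 to 2.25 in E0771 and -0.68 to -0.08 in metM-Wnt-liver tumors, with E0771 Con 6 at the top.

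Cytokines that draw or instruct myeloid cells went both ways, 3 higher and 3 lower of 20 (30% called, against 45.2% of all genes). With fat and muscle scores as covariates 5 were higher and 3 lower. Il1b, an inflammatory cytokine, had 9.62, 11.80 and 12.89 in E0771 against 6.60, 8.40 and 9.81 in metM-Wnt-liver tumors (3.21 higher, SE 0.62, adjusted p = 2.49e-05), with slight overlap, Il6 was 2.20 higher, and Cxcl1, a neutrophil chemokine, was 1.81 higher but not called without E0771 Con 4 (1.53) or E0771 Con 6 (1.25), nor in DIO mice. Lif, leukemia inhibitory factor, had 4.79, 5.27 and 5.62 in E0771 against 10.12, 10.48 and 11.56 in metM-Wnt-liver tumors (-5.36, SE 0.49, adjusted p = 2.69e-13), 41-fold lower in E0771. Cxcl16, a chemokine, had 12.48, 13.05 and 13.77 in E0771 against 15.18, 15.50 and 16.04 in metM-Wnt-liver tumors (-2.47, SE 0.29). Cxcl12, a stromal chemokine, had 9.63, 10.26 and 11.22 in E0771 against 12.09, 12.47 and 13.21 in metM-Wnt-liver tumors (-2.25, SE 0.38).

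**Figure D3:**
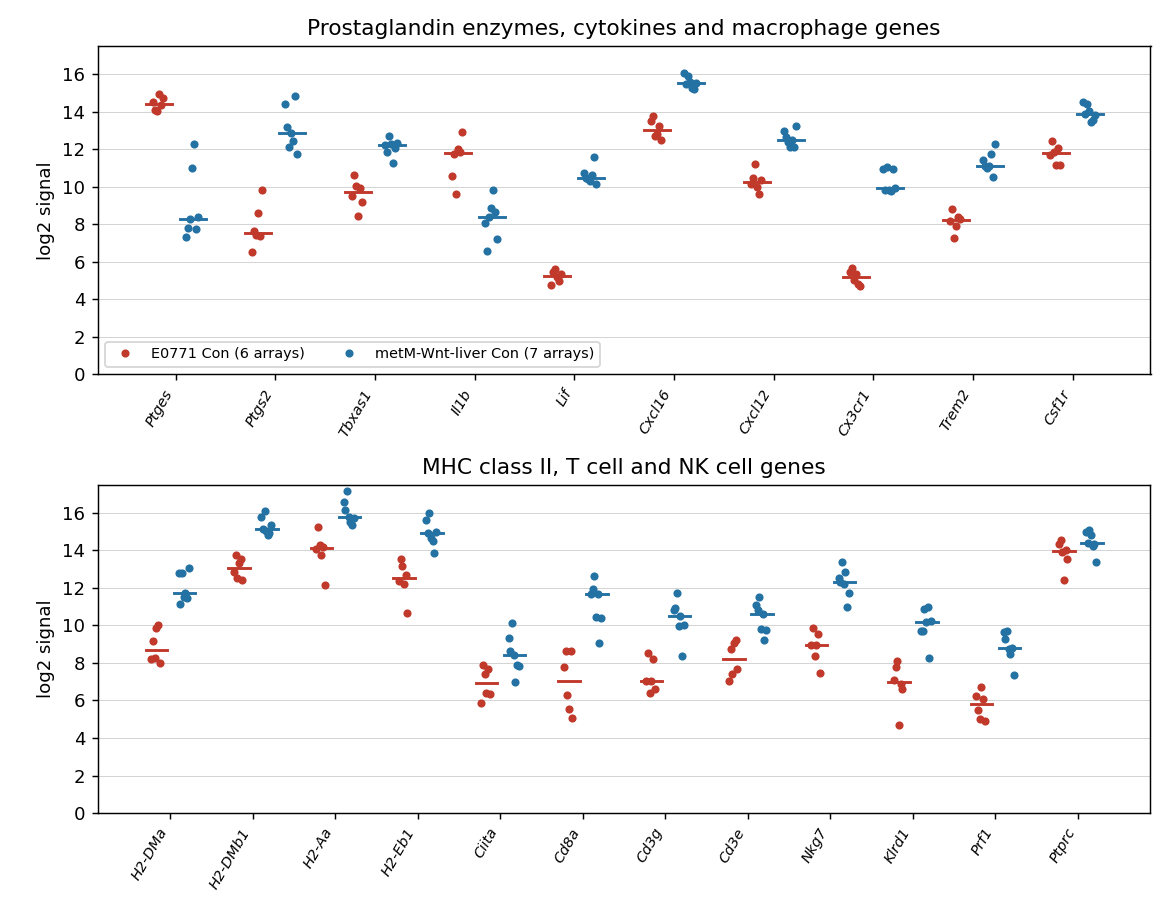
Log2 signal by tumor of prostaglandin enzymes, cytokines and macrophage genes (upper panel) and of MHC class II, T cell and NK cell genes (lower panel), red for the 6 E0771 Con and blue for the 7 metM-Wnt-liver Con tumors, with a line at each median. Ptges and Il1b lie higher in E0771 and the other genes lower, with overlap for Il1b, Ciita, Cd3g and Ptprc.

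Markers of fat, muscle and vessels varied between tumors, and their part in the other results was not tested beyond the fits given here. Of 14 adipocyte markers 13 were higher in E0771 (92.9%, against 24.4% of all genes, median 3.51). The list's score was 0.47 to 5.35 in E0771 against -4.70 to 1.73 in metM-Wnt-liver tumors. Adipoq, adiponectin, had 8.59, 12 and 18.10 in E0771 against 0.07, 7.72 and 11.70 in metM-Wnt-liver tumors (5.80 higher, SE 1.52) with overlap, and the lipase Lpl had 10.36, 11.22 and 14.99 in E0771 against 3.99, 6.61 and 11.13 in metM-Wnt-liver tumors (5.20, SE 0.72), also with overlap. Of the 14 markers 7 had a metM-Wnt-liver Con array below the lowest value of any E0771 array, and with all values under 5 set to 5 Adipoq was 5.02 higher and 12 of the list were called. None of the 13 was called in ConSul mice, whereas all 13 were in DIO and in DIOSul mice. Like the Con arrays, metM-Wnt-liver DIO and DIOSul arrays fell below the lowest E0771 value, in 25 and 20 genes of the whole array. The metM-Wnt-liver ConSul arrays did so in 0. Whether the repeats follow these low values was not tested. Car3, a carbonic anhydrase of fat and muscle, showed the widest difference of the list, 10.70, 15.45 and 19.34 in E0771 against 2.84, 8.70 and 12.88 in metM-Wnt-liver tumors (7.10, SE 1.55, with overlap), and 0.48 in ConSul mice. Timp4, a protease inhibitor of fat tissue outside the lists, was 4.75 higher in Con and -0.26 in ConSul mice. No skeletal muscle marker was called of 15 by limma; the score reached 6.62 in E0771 Con 1 and 2.49 in metM-Wnt-liver Con 5, where Acta1, skeletal actin, was at 14.74 and 13.50, and without these tumors 8315 genes were called. Of 13 endothelial markers 3 were higher and 5 lower, with Emcn, endomucin of capillaries and veins, at 7.68, 8.02 and 8.11 in E0771 against 9.04, 9.61 and 10.22 in metM-Wnt-liver tumors (-1.75, SE 0.31), and Lyve1, of lymphatic vessels and some macrophages, 4.49 higher but not called in ConSul mice nor with fat and muscle scores as covariates (1.78, adjusted p = 0.242 by limma). Of 10 fibroblast markers 2 were higher and 3 lower (50% called, against 45.2% of all genes). Dpt was the called marker with the largest difference and was higher, at 9.54 to 13.75 in E0771 against 4.71 to 11.88 in metM-Wnt-liver tumors, with overlap. Pdgfrb, a growth factor receptor of fibroblasts and pericytes, had 10.70, 11.48 and 12.11 in E0771 against 12.61, 13.28 and 13.65 in metM-Wnt-liver tumors (-1.79, SE 0.25) but was not called in ConSul mice. Of the 5 called fibroblast markers 1 repeated in ConSul mice, and with fat and muscle scores as covariates 0 were higher and 3 lower. With fat and muscle scores as covariates 7503 genes were called, and of the immune lists 9 of 10 MHC class II, 7 of 10 T cell, 10 of 11 NK and 11 of 15 macrophage genes were lower.

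Of 19 mitosis genes 5 were higher and 3 lower (42.1% called, against 45.2% of all genes, median 0.31), or 9 higher with arrays centred. Mki67, the Ki-67 antigen, went against the larger number at 11.37, 11.90 and 12.71 in E0771 against 12.94, 13.50 and 15.03 in metM-Wnt-liver tumors (-2.0, SE 0.37, adjusted p = 9.89e-06), whereas the spindle checkpoint kinase Bub1 was 1.01 higher and Top2a 0.83 higher, neither called in ConSul mice. Limma did not call Top2a with only the 13 Con arrays in the fit (adjusted p = 0.0911), with a replicate block (0.135) or without the muscle-rich tumors (0.0815). The replication licensing factor Cdt1 had 12.03, 12.82 and 13.79 in E0771 against 10.58, 11.30 and 11.66 in metM-Wnt-liver tumors (1.6 higher, SE 0.25). Of 22 hypoxia and glycolysis genes 7 were higher and 4 lower (50% called, against 45.2% of all genes): Adm, adrenomedullin, a vessel-widening peptide, had 12.26, 13.85 and 14.67 in E0771 against 6.97, 7.32 and 8.44 in metM-Wnt-liver tumors (6.05 higher, SE 0.45, adjusted p = 3.19e-16) and Slc16a3, the lactate exporter, had 15.35, 16.14 and 16.47 in E0771 against 11.60, 12.26 and 12.75 in metM-Wnt-liver tumors (3.87 higher, SE 0.30), while Bnip3, a hypoxia-induced mitophagy gene, was lower by 1.96 with overlap.

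Of 25 respiratory chain genes 6 were higher and 5 lower (44% called, against 45.2% of all genes). Cox6c, a subunit of cytochrome oxidase on chromosome 15, had 15.88, 16.03 and 16.53 in E0771 against 16.99, 17.22 and 17.66 in metM-Wnt-liver tumors (-1.19, SE 0.11, adjusted p = 1.22e-12), and Ndufa4 was 1.33 higher with overlap.

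Retinoid and aldehyde dehydrogenase genes went both ways, 5 higher and 4 lower of 13 (69.2% called, against 45.2% of all genes), Crabp2 among the lower. Cyp26b1, which breaks down retinoic acid, had 8.34, 9.81 and 10.40 in E0771 against 3.23, 4.03 and 4.49 in metM-Wnt-liver tumors (5.78 higher, SE 0.34, adjusted p = 4.21e-20), and Stra6, the retinol receptor, had 4.14, 5.35 and 5.70 in E0771 against 6.76, 7.98 and 8.02 in metM-Wnt-liver tumors (-2.55, SE 0.45). Of 21 NRF2 and glutathione genes 10 were higher and 2 lower (57.1% called, median 0.68), with the transferase Gstt1 at 6.93, 7.64 and 8.78 in E0771 against 4.06, 4.86 and 5.93 in metM-Wnt-liver tumors (2.78 higher, SE 0.37), Hmox1, heme oxygenase, 1.79 higher and Nqo1, a quinone reductase, at -1.62, both with overlap and Hmox1 not called in ConSul mice. Fasn, fatty acid synthase, had 11.78, 12.35 and 14.06 in E0771 against 8.88, 10.05 and 12.54 in metM-Wnt-liver tumors (2.34 higher, SE 0.38, with overlap) among 7 higher and 1 lower of 16 lipid synthesis genes (50% called). Atf4, a stress response factor, did not pass the test (-0.16, SE 0.16).

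Most of the remaining lists held fewer calls or no clear direction, while matrix proteases and inhibitors leaned lower. Over all genes 24.4% were called higher and 20.8% lower. Of 10 mammary keratins 3 were higher and none lower, but none was higher with fat and muscle scores as covariates, where Krt19 was at 0.16 (adjusted p = 0.853), and 5 were with the replicate number as a block. Counts higher and lower were, of 16 luminal, basal and hormone receptor genes 4 and 2, and of 19 matrix proteases and inhibitors 3 and 7. The matrix list had 52.6% called, against 45.2% of all genes, with a median of -0.32, and 4 lower without E0771 Con 6. Dendritic cell markers had 3 higher and 2 lower of 10, secreted Wnt inhibitors 2 and 1 of 15, DNA replication genes 6 and 4 of 19, oncofetal and imprinted genes 2 and 2 of 13. Among markers of tissue that could be cut out with a tumor, skin keratinocyte genes had 1 higher and none lower of 11, milk and secretory genes 2 and 1 of 12, nerve genes 2 and 2 of 6, and no red cell gene of 3 nor any of 3 Y-linked control genes was called.

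**Figure D4:**
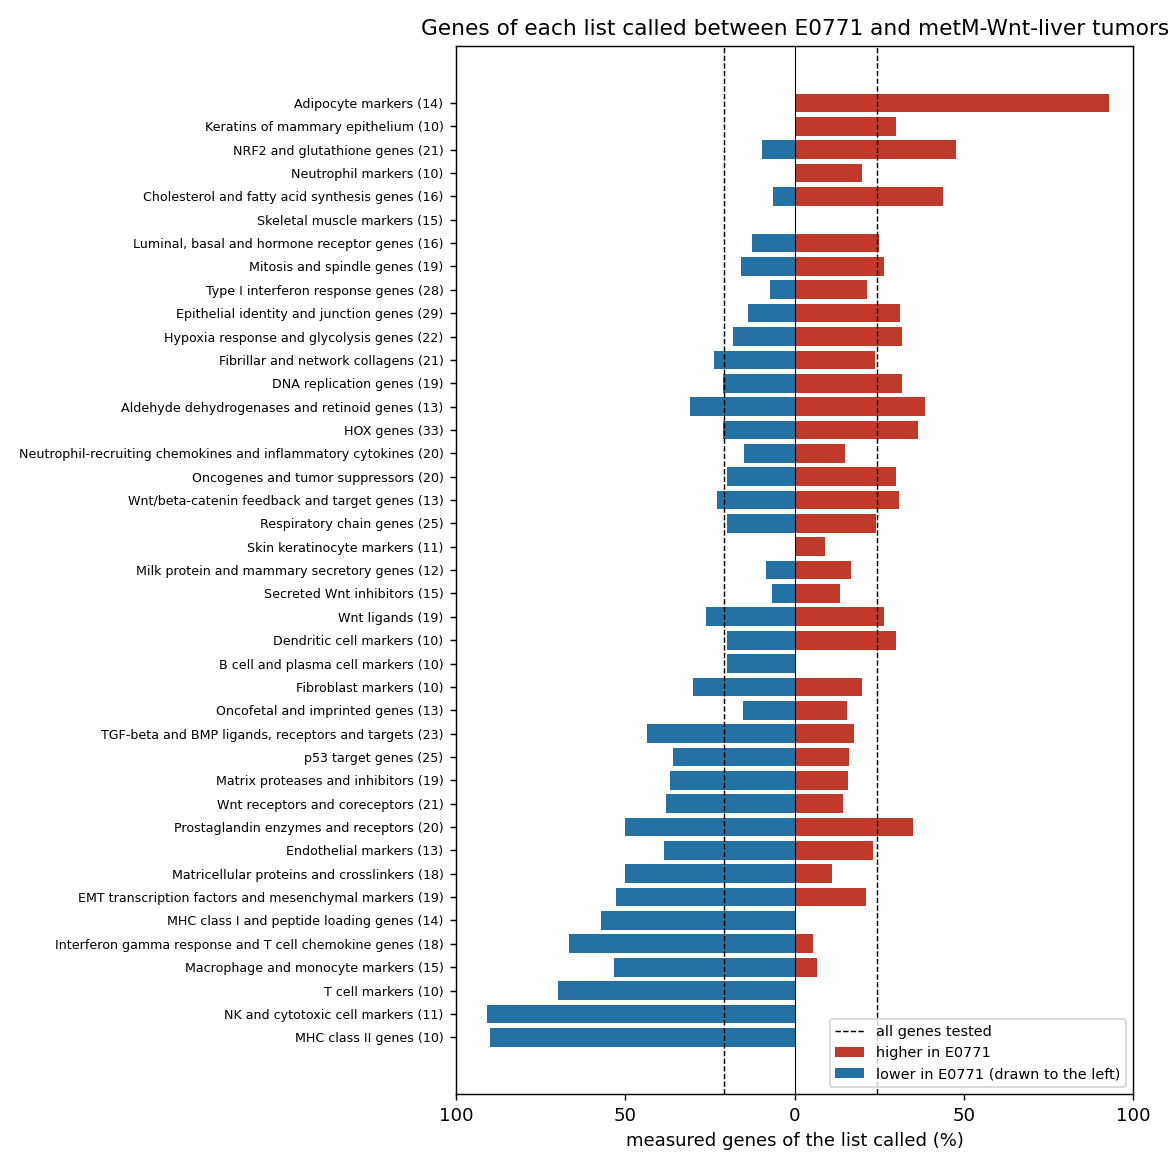
Share of the measured genes of each list (number in parentheses, lists of 10 or more) called higher (red, to the right) or lower (blue, to the left) in E0771 than in metM-Wnt-liver tumors of Con mice, ordered by median difference. Dashed lines mark the shares over all genes, 24.4% and 20.8%; MHC class II, NK and T cell lists reach 90%, 90.9% and 70% lower and adipocyte markers 92.9% higher.

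By chromosome, the share of genes called higher in E0771 ran up to 34.6% on chromosome 8, 31.2% on 10 and 30.3% on 11, against 24.4% over all genes, and the share called lower up to 34.1% on 15 and 27.4% on the X, against 20.8%. Runs of neighbouring genes that moved together were found in 13 stretches, built from windows of 15 neighbouring tested genes with 12 or more called in 1 direction. On chromosome 2, 19 of 25 genes from Atp5e to Ppp1r3d were higher and none lower (median 0.69). This stretch holds a run of Zfp and Gm genes, Gm14393 to Zfp931. Related copies may share probes, as may the Apol genes named next. On chromosome 15, 18 of 23 genes from Lrrc14 to Myh9, a stretch that includes the Apol genes, were lower and none higher (median -0.81), and 13 of 16 from Derl1 to Ndufb9 were lower (median -0.89). On the X 14 of 20 genes from Cacna1f to Gata1 were lower (median -0.68). DNA copy number was not measured.

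The same line difference was tested in other animals. It was called for 6748 genes (34.6%) in ConSul, 8570 (43.9%) in DIO and 9166 (47%) in DIOSul mice. Of the 8808 genes called in Con mice, 5150 (58.5%) were called in the same direction in ConSul, 6541 (74.3%) in DIO and 6965 (79.1%) in DIOSul mice, and 64, 8 and 4 in the opposite direction. Of the 451 genes with a difference of at least 3, 405, 448 and 448 repeated. In 1295 genes, 726 higher and 569 lower, all 28 E0771 tumors lay on one side of all 25 metM-Wnt-liver tumors. A difference that depended on the host group was called for 1056 genes (5.41%), but for 87 without the ConSul groups, and between DIO and Con mice for 15 (0.0769%), or 2 with quantile normalization; 2222 genes had an unadjusted p under 0.05 for that last test.

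**Figure D5:**
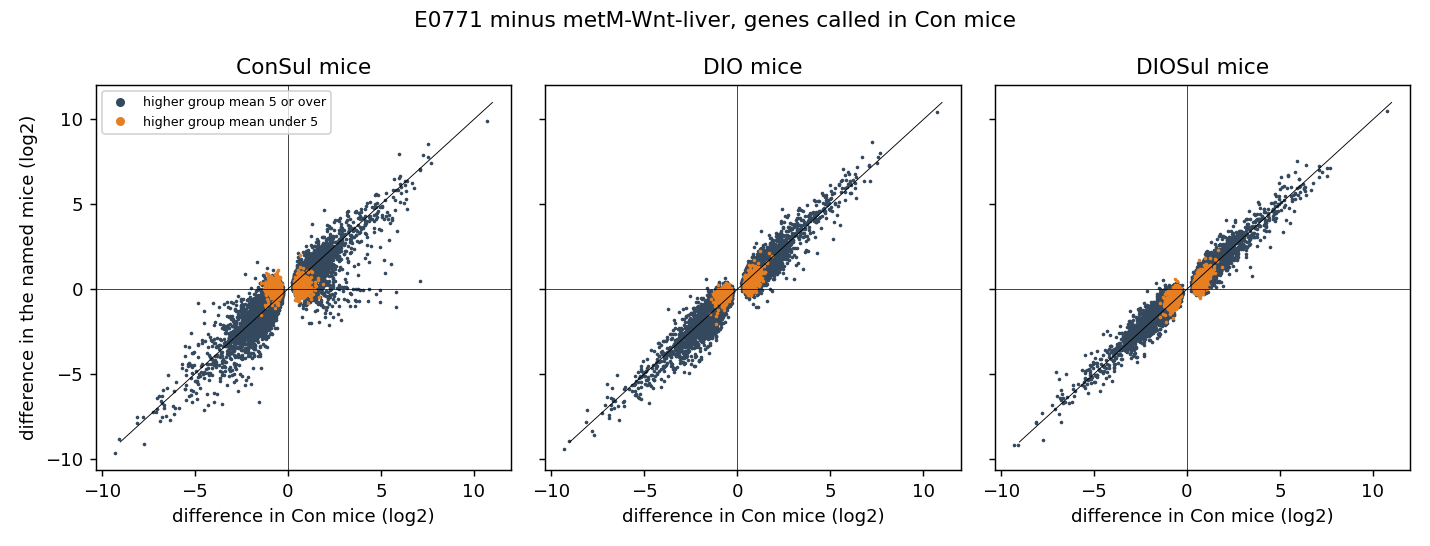
Difference in log2 signal between E0771 and metM-Wnt-liver tumors in Con mice (horizontal) and in ConSul, DIO or DIOSul mice (vertical), 1 point for each of the 8808 genes called in Con mice, orange where the higher group mean in Con mice was under 5, with the line of equal values. Points lie near the line in DIO and DIOSul mice, and in ConSul mice a set of genes higher in Con mice lies near 0.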

How the data were processed

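Total RNA of whole tumors was hybridised by the authors to single-colour Clariom S Mouse HT arrays, and what was deposited are log2 values from SST-RMA, a background correction and summary run by the authors in their console software; RNA kit names differ between sources, and array batches were not given in the sources used here. Of 22206 transcript clusters, 19572 had 1 symbol, and the brightest cluster was kept for each of 19505 genes. Differences, E0771 minus metM-Wnt-liver, were fitted with limma 3.58.1 in R 4.3.3 on 53 arrays of both lines as 8 groups with eBayes and Benjamini-Hochberg adjustment over all genes. In simulated data the fit recovered 68 of 100 genes changed by 1 and 9 of 100 changed by 0.5, over 19505 genes. The other 19305 were left unchanged, and 3 of them were called. With 45.2% of genes called in the real data the adjusted limit is looser, so these shares do not give the sensitivity there. Each array is 1 tumor of 1 mouse, and array number limits precision. Scores average the genes of a list after centring each over the 13 arrays. Members, 44 gene lists and genes named were chosen with earlier results of these data known. Named were up to 12 largest non-overlapping differences per direction, up to 4 called genes per list (its first 2 where none was called) and a fixed set; 23 further genes were chosen after their values were seen. Arrays of metM-Wnt-lung entered only 1 alternative and array comparisons. Other alternatives changed the arrays fitted, scaling, weights, variance model, filters and covariates.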

Additional observations from a re-analysis of the deposited data

Results flagged for a closer look

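A single tumor stood apart from its group by Dixon's limit in 19 of 322 groups of values examined, where chance gives about 1 in 20. In E0771 these were, on the log2 scale, Dynap at 5.82 and Fzd7 at 4.97 in Con 4 (nearest tumors 4.44 and 6.50), Mme at 10.02, Znrf3 at 9.79, Cox6c at 16.53, Ndufa4 at 14.91 and Fasn at 14.06 in Con 3 (nearest 7.36, 10.3, 16.06, 14.12 and 12.62), Hdc at 12.26 in Con 6 (nearest 10.17), and Hoxa10 at 7.15 and Acta1 at 14.74 in Con 1 (nearest 8.05 and 5.6). The NK score was -1.90 in E0771 Con 6 (nearest -1.13) and the muscle score 6.62 in E0771 Con 1 (nearest -0.64). In metM-Wnt-liver tumors these were Prkg2 at 10.13 in Con 7 (nearest 12.21), Wnt1 at 2.93 and Timp1 at 15.29 in Con 5 (nearest 3.26 and 14.48), Lif at 11.56 in Con 6 (nearest 10.72) and Esx1 at 4.88 in Con 3 (nearest 3.97). The fibroblast score was -1.25 in metM-Wnt-liver Con 6 (nearest -0.07) and the muscle score 2.49 in metM-Wnt-liver Con 5 (nearest 0.13).

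A line difference that depended on the host group was called for 23 named genes by limma's F test over the 4 host groups. Without the ConSul groups it was called for 4 of them, Ereg, Glp1r, Cd3e and Xlr3a. Over all genes, 707 were called for ConSul against Con mice, 15 for DIO and 0 for DIOSul. The metM-Wnt-liver ConSul arrays stood apart from their line, as given above, so host group and array differences cannot be told apart in the ConSul values. E0771 minus metM-Wnt-liver in ConSul mice, with the Con value in parentheses, was smaller or turned for Hpgd -0.088 (2.98), Lpl 0.94 (5.20), Timp4 -0.26 (4.75), Ido1 -1.38 (2.29), Xlr3b 4.70 (6.40), Xlr3a 5.27 (5.77), Ocln 3.05 (4.26) and Ccn4 -2.32 (-3.43). It was wider for 4930550L24Rik 8.54 (7.52), Ereg 7.88 (7.24), Glp1r -7.76 (-6.88), Fn1 -5.02 (-2.58), Tigar 2.57 (1.41), Wnt10a -3.24 (-2.28), Tbxas1 -4.12 (-2.48), Col6a2 3.22 (2.26), H2-Q4 -3.90 (-2.68), H2-Aa -3.05 (-2.08), Cxcl16 -2.81 (-2.47), Cxcl12 -5.36 (-2.25), Cd3e -3.72 (-2.21) and Ptprc -1.58 (-0.66). For Trp53i11 it was -7.04 (-7.01), with -5.59 in DIO and -4.86 in DIOSul mice.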

How the results depend on the processing

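The count of called genes was 7333 to 9061 under other fits, scalings, weights and variance models, with low values raised to 5 and without the muscle-rich or ConSul arrays, apart from the settings named next. Asking for a difference of at least 1 left 3857 genes (1963 higher, 1894 lower), and testing only genes above the median signal left 2634 lower ones, since fewer genes could be called. Genes also called in ConSul mice in the same direction numbered 5150 (2782 higher, 2368 lower), and in all 4 host groups 4458 (2467 and 1991). Leaving out each Con tumor in turn gave 8343 to 8743 called, 4487 to 4725 higher and 3856 to 4018 lower. Same-numbered tumors of the lines shared only a number (correlations of deviations -0.223 to 0.16), and a replicate block in the fit of the 13 arrays gave 7009 called genes, against 7529 without the block. Host dependence was called for 87 genes without the ConSul groups, and DIO against Con for 2 genes with quantile normalization. With adipocyte and muscle scores as covariates Car3 was at -0.081 and Adipoq at -1.51, since both belong to the adipocyte list. Of 147 named genes checked one by one, 123 had the same call under every setting. Some genes named without a difference, such as Dpt, Hoxa2 and Hoxc13, were not among them. The alternatives without ConSul arrays, with low values raised, without muscle-rich tumors and with calls in other hosts were chosen after seeing the data.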
